A study of Arabidopsis thaliana with 27 samples.

Results

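Of the 27 libraries of the study 6 were compared here, 3 from developing PDAT seeds and 3 from developing CL37 seeds of the youngest stage, 7 to 8 days after flowering. They were taken by line and stage from the sample labels. Both lines are Arabidopsis thaliana plants carrying the fae1 mutation, which blocks fatty acid elongation in the seed, together with RcFAH12, the castor bean oleate hydroxylase that makes ricinoleic acid. CL37 seeds carry these alone, and PDAT seeds also express RcPDAT1a, a castor phospholipid:diacylglycerol acyltransferase. By the labels, then, the lines differ in the added acyltransferase. The study also sampled fae1 seeds without a transgene and later stages of all 3 lines, at 9 to 10 and 11 to 12 days. Plants grew under constant light at about 22 °C, siliques came from single shoots of about 50 plants per line, and RNA was extracted from roughly 100 mg of seeds removed from the frozen siliques. Messenger RNA libraries were made with the Illumina TruSeq kit in 3 biological replicates, A, B and C. Neither castor transgene is among the counted loci, so their expression was not analysed here.

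Triacylglycerol, the storage oil of seeds, can be made by adding a fatty acid from acyl-CoA to diacylglycerol, the step of DGAT, or by moving a fatty acid from phosphatidylcholine to diacylglycerol, the step of PDAT. Hydroxy fatty acids made by the castor hydroxylase are formed on phosphatidylcholine and enter Arabidopsis oil poorly, and castor acyltransferases are added to such lines to help them pass into oil. At the stage examined here the embryo is at the start of its filling phase, while the seed coat is laying down pigment precursors and mucilage.

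Each library held between 7999864 and 14415848 reads assigned to genes, with 21259 to 22650 genes detected and 11.6% to 17.8% of the counts in the 20 highest genes. Of 33602 loci, 18897 passed the low-count filter and were tested. Levels are counts per 1000000 counts (CPM) after TMM scaling, and fold changes are log2 of PDAT over CL37 with their standard errors (SE). A gene was called at an adjusted p below 0.05 (edgeR quasi-likelihood test over all 27 libraries, Benjamini-Hochberg). The labels do not say what the letters A, B and C stand for. At this stage the deviations of same-letter libraries from their group means correlated weakly between the lines, at 0.107 to 0.315. The case for pairing by letter thus comes from the same 6 libraries that are compared. Results that change when the letter is kept as a block are also given from a fit of the 6 libraries with that block, called the paired fit below. It has few residual degrees of freedom. One fae1 library of the same stage, replicate A, stood apart, with a developmental score (below) of -0.63 where its partners B and C had -3.16 and -2.82. Replicate A of fae1 at 9 to 10 days had the lowest score of its group, -1.66 against -1.13 in B and -0.52 in C. By this score it did not stand apart as clearly, since B and C differed too. The count of called genes is given with and without these 2 A libraries. Nothing in the labels states that the replicates came from separate plantings, so the p-values measure the spread between these libraries.

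Before any gene was compared, the libraries differed in composition. Alignments that matched several places in the genome made up 19.4%, 16.8% and 16.6% of all alignments in PDAT A, B and C, against 15.8%, 10.4% and 11.5% in CL37 A, B and C. Every PDAT library was above every CL37 library. The means were 17.6% ± 1.56 in PDAT and 12.6% ± 2.88 in CL37 (SD, n = 3 each), a difference of 5.03 percentage points with an exact two-sided permutation p of 0.1, which is the smallest value that 3 against 3 libraries allow. Counting error alone was small, the widest 95% Wilson interval spanning 0.0468 percentage points. Loci of the plastid and mitochondrial genomes took 0.424% ± 0.0523 of the gene counts in PDAT and 0.337% ± 0.0434 in CL37 (exact permutation p = 0.2, n = 3 each). Most single loci went the other way, with a negative fold change in 52 of 75 plastid and 37 of 43 mitochondrial loci tested. The mitochondrial ribosomal RNA RRN26 was higher in PDAT, at 1286 CPM against 835 CPM in CL37.

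A developmental score was used to place the seeds in time. It is the mean log2 CPM of 500 genes higher in fae1 seeds at the last stage than at the first minus that of 500 genes lower there, so it comes from libraries of neither line. The fae1 libraries used for this choice include replicate A of the first stage, which stood apart. PDAT seeds averaged -2.41 ± 0.06 and CL37 seeds -2.67 ± 0.05 (SD, n = 3 each), again without overlap and with the smallest possible exact permutation p of 0.1. For scale, the score lay between -0.65 and -0.16 in PDAT seeds and between -0.44 and -0.14 in CL37 seeds of the next stage, so the gap of 0.26 between the lines was small beside the distance to that stage. Genes that change with stage went both ways relative to the score. All 13 tested storage and oleosin genes, which rise by the next stage, had a negative fold change. Of 16 cell division genes, which fall, 12 were negative. The seed coat gene BAN, which also falls, was higher in PDAT, at 49.2 CPM against 23.7 CPM in CL37. What part seed age had in the differences was not tested.

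**Figure D1:**
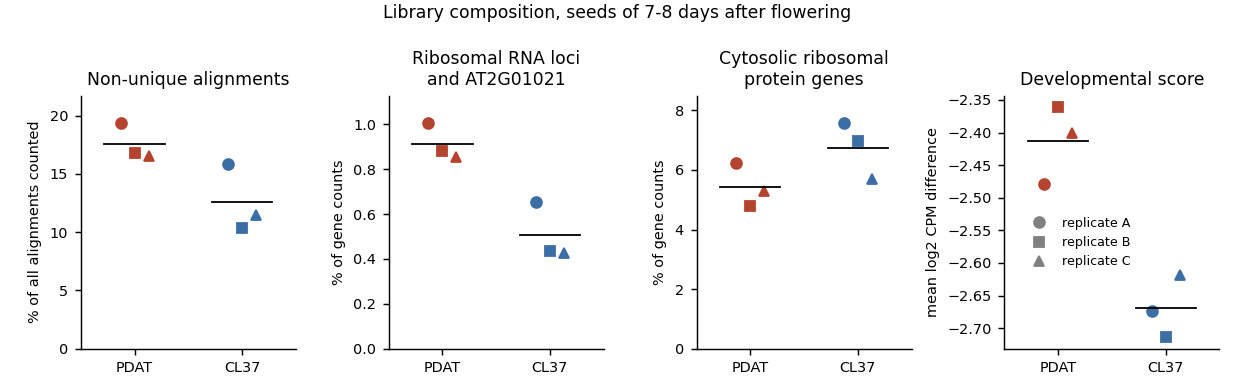
Composition of the 6 libraries, PDAT on the left and CL37 on the right of each panel, with symbols for replicates A, B and C and a line at the mean. Shares of non-unique alignments run from 16.6% to 19.4% in PDAT and from 10.4% to 15.8% in CL37, and the developmental score (log2 units, axis not starting at 0) does not overlap between the lines.

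With all 27 libraries in the fit, 2 of 18897 genes were called, 0.0106% of those tested, and both rose in PDAT. SYP21 (AT5G16830) encodes a syntaxin of the prevacuolar compartment, where vesicles on the way to the vacuole fuse. It lies on chromosome 5 at 5532846 to 5535295, minus strand (TAIR10.1). Its level was 27.4, 25.4 and 21.7 CPM in PDAT A, B and C, against 13.96, 16.3 and 12.0 CPM in CL37 A, B and C. All 3 PDAT libraries were above all 3 CL37 libraries, with a log2 fold change of 0.82 ± 0.13 (SE), a factor of 1.77, and an adjusted p of 0.041 (edgeR). The paired fit gave the same fold change and an adjusted p of 0.00337. SYP21 overlaps the end of the heat shock factor gene HSF3 on the other strand, and the locus AT5G02595. The level of HSF3 was 7.73 ± 1.61 CPM in PDAT and 6.63 ± 0.85 CPM in CL37 (SD, n = 3 each). Strand use in counting is not given in the sources used here.

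The other called gene, AT5G35200 (chromosome 5, 13462155 to 13466150, minus strand), encodes a protein of the ENTH/ANTH/VHS family, whose members bind membrane lipids and clathrin during vesicle formation. PDAT A, B and C had 10.8, 10.9 and 14.96 CPM, and CL37 A, B and C had 5.89, 5.51 and 5.73 CPM. The CL37 libraries lay close together and PDAT C was the highest of the 6. The log2 fold change was 1.09 ± 0.18 (SE), a factor of 2.13, with adjusted p = 0.041 (edgeR) and 0.00316 in the paired fit. In fae1 seeds of the same stage the gene averaged 10.7 CPM, near the PDAT level, while SYP21 averaged 13.5 CPM, near the CL37 level.

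Further genes were near the threshold. There were 10 genes at an adjusted p below 0.1 and 88 below 0.2, and 2148 genes had an unadjusted p below 0.05, of which 1167 were higher (6.18% of those tested) and 981 lower (5.19%). The median SE of a log2 fold change was 0.23, and 0.19 for the 13280 genes of at least 5 CPM. Without the fae1 A libraries of the first 2 stages, which enter through the shared estimate of the spread and through the low-count filter, 37 of 19176 genes were called, 26 higher and 11 lower, SYP21 and AT5G35200 among them. With 1 library of the 6 left out, 0 genes were called without PDAT A, PDAT B or CL37 C, 1 (SYP21) without CL37 B, 2 (AT1G14970 and EMB2820) without CL37 A and 3 (AT1G14970, TBL36 and SYP21) without PDAT C. The log2 fold change of AT5G35200 thus failed the threshold in all 6 of these fits, with adjusted p from 0.0828 to 0.421, and that of SYP21 in 4 of them (edgeR). In the paired fit 1255 genes were called, of which 817 were higher in PDAT (4.32% of those tested) and 438 lower (2.32%). By a simple count, all PDAT libraries lay above all CL37 libraries in 2269 genes (12%) and below them in 2163 genes (11.4%).

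The 10 genes with the smallest p in each direction, chosen by that p, are shown in the plot of 20 genes. Apart from SYP21 and AT5G35200 they failed the adjustment over all genes, with adjusted p up to 0.189 (edgeR). All 20 passed in the paired fit. That fit tests the same 6 libraries in which they were chosen, so it is no separate support. Besides SYP21, MEE55, AT2G01100, ATGRIP, AT3G12020, AT4G01040, AT2G04280 and AT2G45260 overlap other loci in the annotation. With strand use not given, how reads there were assigned is not known. AT1G14970, a member of the O-fucosyltransferase family, had 62.6, 45.4 and 28.4 CPM in PDAT A, B and C, against 19.4, 8.88 and 9.89 CPM in CL37 A, B and C. It had the largest difference of the 20, a log2 fold change of 1.84 ± 0.33 (SE, adjusted p = 0.0692, edgeR), and in both lines replicate A was highest. ATGRIP, a golgin-type protein of the trans-Golgi, had 23.4 ± 0.361 CPM in PDAT and 13.6 ± 0.818 CPM in CL37 (SD, n = 3 each). MEE55, a membrane protein with a serine incorporator (Serinc) domain, had 20.2 ± 2.17 CPM in PDAT and 9.25 ± 2.01 CPM in CL37.

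The other higher genes were of mixed kinds. SR30, a serine/arginine-rich splicing factor, had 32.7, 32.5 and 27.9 CPM in PDAT, against 19.9, 17.5 and 17.9 CPM in CL37. The arginine/glutamate-rich protein AT1G10890 had 9.31 CPM in PDAT and 5.28 CPM in CL37, and the FAM133-like protein AT2G01100 had 19.0 and 9.67 CPM in these lines. AT1G11070, a hydroxyproline-rich glycoprotein, averaged 28.7 CPM in PDAT and 15.6 CPM in CL37. AT3G12020, a P-loop nucleoside triphosphate hydrolase, averaged 91.1 CPM in PDAT and 54.5 CPM in CL37.

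Among the 10 lower genes, ESM1 differed most. It encodes the epithiospecifier modifier, which steers glucosinolate breakdown towards isothiocyanates. PDAT A, B and C had 4.75, 6.09 and 5.51 CPM, and CL37 A, B and C had 14.2, 15.2 and 15.2 CPM. The groups were far apart, with a log2 fold change of -1.45 ± 0.33 (SE), yet the adjusted p was 0.189 (edgeR) in the fit of all libraries and 0.000561 in the paired fit. TBL36, of the trichome birefringence-like family that acetylates cell wall polymers, had 7.65 CPM in PDAT and 13.3 CPM in CL37. MTP11, a manganese transporter, had 28.3 and 42.1 CPM, and the growth regulator TCP2 had 10.2 and 16.1 CPM, in PDAT and CL37 in this order.

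The remaining lower genes differed less. Mean levels in PDAT and then CL37 were 27.8 and 43.1 CPM for the glycosyl hydrolase AT4G01040 and 48.5 and 74.5 CPM for the calcium-binding protein AT2G04280. They were 35.2 and 53.5 CPM for the lectin-like AT3G09190 and 6.41 and 9.71 CPM for the kinesin light chain-related KLCR3. For the DUF641 protein AT2G45260 they were 16.7 and 23.1 CPM. The last of the 10, AT2G17360, encodes the ribosomal protein RPS4A and is described with its family below.

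**Figure D2:**
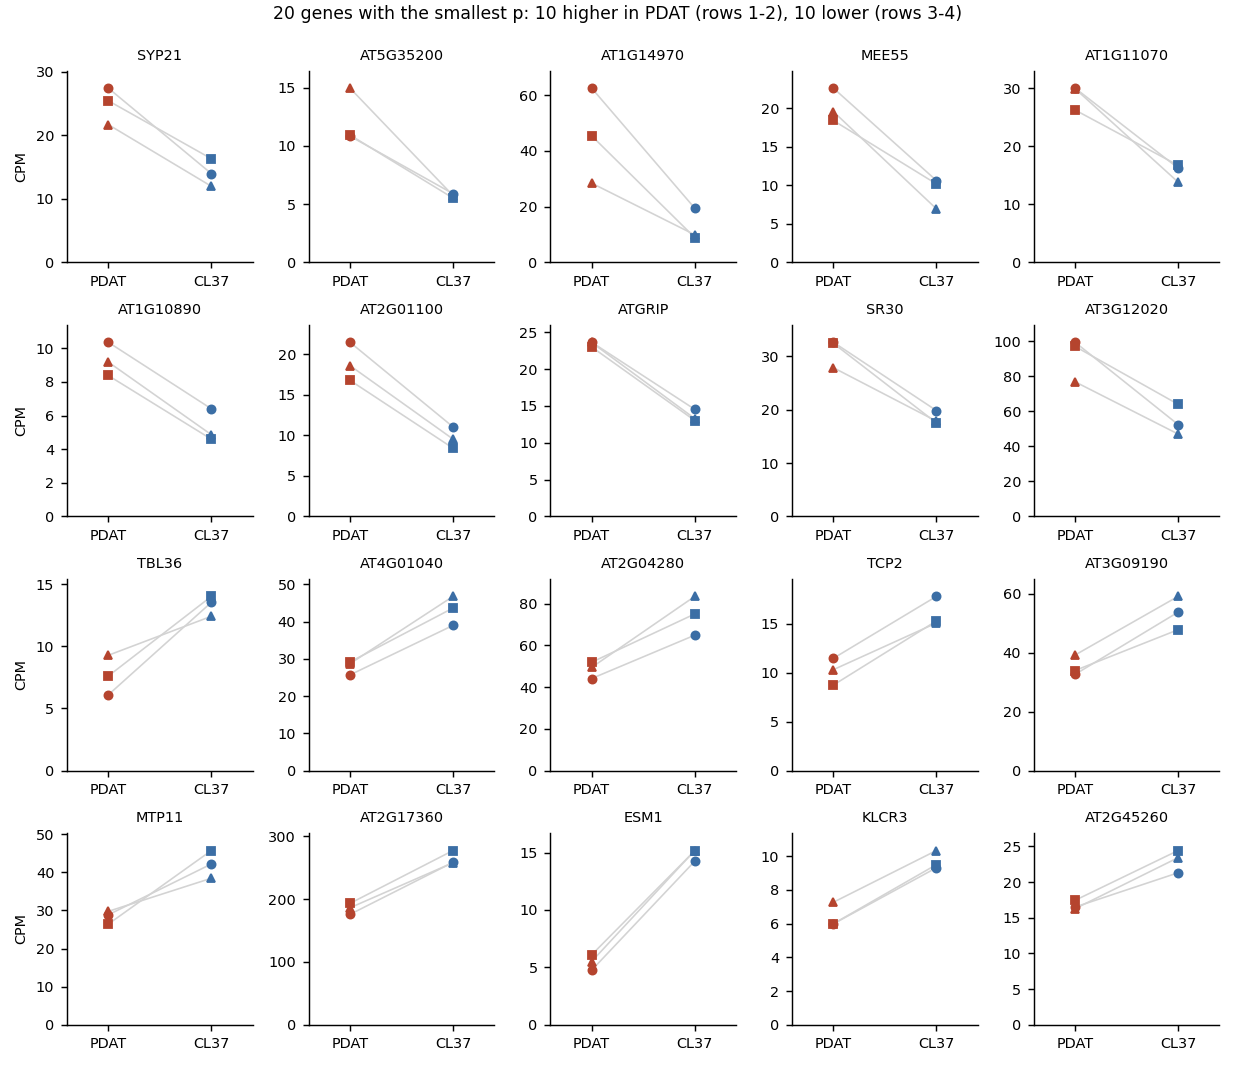
Levels (CPM, axes from 0) of the 20 genes with the smallest p, 10 higher and 10 lower in PDAT, with PDAT on the left and CL37 on the right of each panel; grey lines join replicates of the same letter (circle A, square B, triangle C). The libraries do not overlap in any panel, which follows from how the genes were chosen, and AT1G14970 and ESM1 show the widest gaps.

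The genes with the largest differences among those called in the paired fit were of another kind. At a mean of at least 5 CPM in the higher line, the top of the list held 3 neighbouring expansin genes of chromosome 5, EXPA21, EXPA23 and EXPA25, which loosen cell walls. All 3 passed 5 CPM through PDAT alone. The list is ranked by the difference in these same libraries, so the size and direction of its top genes follow from the choice. EXPA21 (chromosome 5, 15726243 to 15727458) had 2.94, 8.33 and 14.2 CPM in PDAT A, B and C, against 0.509, 1.69 and 1.13 CPM in CL37 A, B and C. PDAT A was low and C high, and the log2 fold change of 2.92 ± 0.86 (SE) had an adjusted p of 0.236 (edgeR) and 0.000561 in the paired fit. EXPA23 averaged 6.54 CPM in PDAT and 1.04 CPM in CL37, and EXPA25 5.52 and 1.05 CPM, with paired-fit adjusted p of 0.00939 and 0.0144 (edgeR). Neither was called in the fit of all libraries (adjusted p = 0.312 and 0.377, edgeR), and for EXPA23 the lines overlapped. The 3 copies are close relatives, and reads could be split between them.

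The next genes by size follow, and these too passed 5 CPM through PDAT alone. The defensin-like AT5G55132 had 10.5 ± 4.54 CPM in PDAT and 2.17 ± 0.326 CPM in CL37, and SCRL10, related to the pollen coat protein SCR, had 7.38 ± 3.85 CPM in PDAT and 1.59 ± 0.501 CPM in CL37 (SD, n = 3 each). The invertase/pectin methylesterase inhibitor family member AT5G46960 averaged 8.09 CPM in PDAT and 1.803 CPM in CL37. For the uncharacterized AT2G02498 the means were 5.72 CPM in PDAT and 1.14 CPM in CL37. These 4 genes and the expansins shared 1 pattern among the libraries, lowest in PDAT A within PDAT. At 11 to 12 days they were near the floor, with means of 0.173 to 0.922 CPM in PDAT and of 0 to 0.176 CPM in CL37, and none was called there.

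The chalcone and stilbene synthase family member AT4G00040 had 9.02, 7.13 and 4.81 CPM in PDAT, against 3.35, 1.07 and 1.39 CPM in CL37, and the TRAF-like AT1G65370 averaged 14.6 CPM in PDAT and 4.38 CPM in CL37. In both genes replicate A was the highest of each line, and both, like SR34b, passed a mean of 5 CPM through PDAT alone. SR34b, a splicing factor of the same class as SR30, had 7.26, 3.17 and 5.598 CPM in PDAT, against 2.25, 0.766 and 0.781 CPM in CL37 (log2 fold change 2.05 ± 0.51 SE, adjusted p = 0.189, and 0.00216 in the paired fit, edgeR). The splicing factors of this class as a whole showed no common direction. Of 18 tested, 8 had a positive and 10 a negative fold change, with a median of -0.01. SR30 and SR34b alone were called in the paired fit, both higher (11.1% of the list, against 4.32% of all genes). SR34, for instance, had 80.2 ± 3.39 CPM in PDAT and 81.3 ± 4.16 CPM in CL37 (SD, n = 3 each).

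On the lower side of the paired fit the largest differences, besides ESM1, were those of the germin-like GER2, with 31.2, 25.4 and 31.2 CPM in PDAT, against 73.0, 86.7 and 47.2 CPM in CL37. In the authors' deposited table GER2 is listed at 1041 FPKM in PDAT and 1575 FPKM in CL37, a relatively smaller gap. STOMAGEN, a peptide that promotes stomata, had 2.88 CPM in PDAT and 5.65 CPM in CL37, and the peptide hormone RALFL32 had 2.87 and 5.602 CPM in these lines. Both passed 5 CPM through CL37 alone. AT3G17520, a late embryogenesis abundant protein, had 29.8, 52.7 and 55.1 CPM in PDAT, against 77.8, 75.7 and 96.7 CPM in CL37. The rest of the 12 were the non-coding RNA AT1G79075, the Dof-type zinc finger protein AT2G28510, the loci AT2G07774, AT2G07706 and AT1G13145, and 2 ribosomal proteins, AT3G08520 and SSR16.

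Ribosomal protein genes formed the largest group that lay together below CL37. Their products, with ribosomal RNA, build the cytosolic ribosome, and their mRNA is a large part of the message in growing cells. Of 183 genes tested, 176 had a negative and 7 a positive fold change, and the median was -0.37 where the median of all tested genes was 0.00 and 50% were positive. All PDAT libraries lay below all CL37 libraries in 121 of the 183 (66.1%, against 11.4% of all genes), 74 had an unadjusted p below 0.05 in that direction, and 59 were called lower in the paired fit (32.2%, against 2.32%). None was called in the fit of all libraries, where the smallest adjusted p of the list was 0.189 (edgeR). Their summed level was 38970, 36000 and 36950 CPM in PDAT A, B and C, against 53880, 51400 and 43670 CPM in CL37 A, B and C, without overlap. As raw shares, before TMM scaling, they took 6.24%, 4.80% and 5.28% of the gene counts in PDAT A, B and C, against 7.59%, 6.96% and 5.69% in CL37 A, B and C, so by raw share CL37 C lay below PDAT A.

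The genes can be shown by 3 examples. AT2G17360 (RPS4A, chromosome 2, 7546440 to 7548406, plus strand) is a protein of the small subunit and had 176, 193 and 186 CPM in PDAT, against 259, 278 and 258 CPM in CL37 (log2 fold change -0.52 ± 0.12 SE, adjusted p = 0.189, and 0.0183 in the paired fit, edgeR). AT3G04400 (emb2171, large subunit, L14p/L23e family) had 949, 847 and 919 CPM in PDAT, against 1520, 1370 and 1015 CPM in CL37. The large-subunit gene AT2G34480 (L18ae family) had 714, 802 and 683 CPM in PDAT, against 940, 999 and 809 CPM in CL37. AT3G04400 and AT2G34480 are the highest of the 183 genes in the list, and in both CL37 C was the lowest CL37 library. AT3G09200 (L10 family), which the annotation places in no compartment and which is therefore outside the list, had 856 ± 8.57 CPM in PDAT and 1373 ± 245 CPM in CL37. Within the list, AT5G35530 (S3 family) had 199 ± 9.21 CPM in PDAT and 291.6 ± 20 CPM in CL37 (SD, n = 3 each). Most of these proteins are encoded by several near-identical genes, so the split of reads between copies is uncertain for a single gene, the short AT3G08520 (L41 family, 5.67 CPM in PDAT and 11.7 CPM in CL37) included.

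The 250 bases before the annotated starts of the 3 example genes are printed here because ribosomal protein promoters are known for shared short motifs. The sequences are from the RefSeq TAIR10.1 genome, 5′ to 3′ on the strand of each gene, and capitals mark matches to the site II motif, TGGGCC or TGGGCT, on either strand.
AT3G04400, chr3:1167000-1167249, plus strand: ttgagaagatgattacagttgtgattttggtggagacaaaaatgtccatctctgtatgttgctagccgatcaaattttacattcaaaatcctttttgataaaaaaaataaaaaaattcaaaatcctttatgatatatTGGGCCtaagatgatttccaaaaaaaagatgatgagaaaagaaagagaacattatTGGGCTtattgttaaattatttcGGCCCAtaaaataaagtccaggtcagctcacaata
AT2G34480, chr2:14534410-14534659, minus strand: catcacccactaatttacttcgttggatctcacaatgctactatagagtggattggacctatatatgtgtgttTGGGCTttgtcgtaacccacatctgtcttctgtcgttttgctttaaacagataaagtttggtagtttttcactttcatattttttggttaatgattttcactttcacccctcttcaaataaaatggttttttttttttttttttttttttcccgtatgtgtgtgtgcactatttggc
AT2G17360, chr2:7546190-7546439, plus strand: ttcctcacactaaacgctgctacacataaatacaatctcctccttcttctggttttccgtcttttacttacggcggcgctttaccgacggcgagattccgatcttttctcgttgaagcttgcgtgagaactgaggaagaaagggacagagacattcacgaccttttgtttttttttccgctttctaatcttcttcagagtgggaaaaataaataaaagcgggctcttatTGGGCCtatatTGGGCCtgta
In these windows site II was found 3 times before AT3G04400, once before AT2G34480 and at 2 places before AT2G17360, starting 21 and 10 bases before its start. Searched on both strands of the same window, site II occurred before 67.8% of the 183 tested cytosolic ribosomal protein genes, before 33.3% of the 48 tested genes for ribosomal proteins of plastids and mitochondria, and before 23.2% of all 18765 tested nuclear genes. The telo-box, AAACCCTA, which does not overlap site II in its letters, occurred before 19.1%, 6.25% and 3.81% of these groups, and both motifs before 15.3%, 2.08% and 1.46%. These are matches of letters, not tests of binding.

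Nuclear genes for ribosomal proteins of plastids and mitochondria showed a like pattern. Of 48 tested, 42 had a negative and 6 a positive fold change, with a median of -0.31. Their summed level was 3889, 3751 and 4113 CPM in PDAT, against 5210, 5178 and 5184 CPM in CL37, without overlap, and 30 of the 48 were below CL37 in all libraries (62.5%, against 11.4% of all genes). SSR16, a protein of the organellar small subunit, had 295, 238 and 384 CPM in PDAT, against 599, 601 and 529 CPM in CL37, a log2 fold change of -0.92 ± 0.22 (SE, adjusted p = 0.189, and 0.00999 in the paired fit, edgeR). AT5G65220, of the L29 family, had 205 ± 21.0 CPM in PDAT and 314 ± 56.4 CPM in CL37 (SD, n = 3 each). In the paired fit 10 of the 48 were called lower (20.8%, against 2.32% of all genes) and none higher.

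Gene length moved with these differences. Cytosolic ribosomal protein genes have a median exon length of 904 bases, against 1771 for all tested genes. Over 10 groups of genes of rising length the median fold change went up from -0.11 in the shortest, where genes reach 904 bases, to 0.24 in the longest, which begins at 3236 bases. Among the genes called in the paired fit, the 817 higher ones had a median length of 2764.5 bases and the 438 lower ones 1266 bases. The slope was not the same in every library. The longest group minus the shortest was 0.06, 0.22 and 0.21 log2 units in PDAT A, B and C, against -0.43, -0.23 and 0.19 in CL37 A, B and C, so CL37 C lay with the PDAT libraries. After removal of the length trend the median of the cytosolic ribosomal proteins was -0.25 instead of -0.37. The part of length, and of the non-unique share, in the other differences was not tested beyond these fits.

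**Figure D3:**
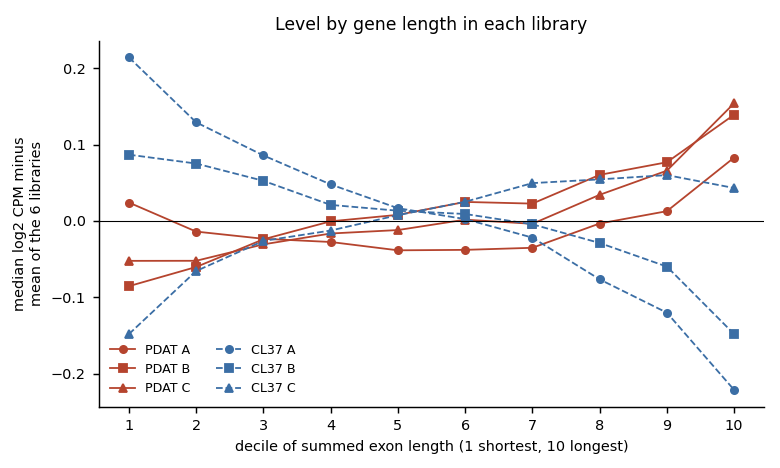
Median log2 CPM, relative to the mean of the 6 libraries, in 10 groups of genes of rising exon length (PDAT solid, CL37 dashed, symbols by replicate). CL37 A and B slope down by 0.43 and 0.23 from shortest to longest, while the 3 PDAT libraries and CL37 C slope up by 0.06 to 0.22.

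Among loci of ribosomal RNA and next to them, AT2G01021 and RRN26 were higher in PDAT and passed in the paired fit, and the others did not pass. The 4 loci named for ribosomal RNA were tested together with AT2G01021, an uncharacterized locus on chromosome 2 at 6571 to 6672, 626 bases beyond the end of the ribosomal RNA locus AT2G01020. These 5 were put together after their values were seen. In the paired fit 2 of them were called, both higher (40%, against 4.32% of all genes), and none in the fit of all libraries. AT2G01021 had 1857, 2208 and 1643 CPM in PDAT, against 766, 478 and 455 CPM in CL37. Every PDAT library was above every CL37 library, and CL37 A was the highest of its line, with a log2 fold change of 1.75 ± 0.50 (SE, adjusted p = 0.235, and 0.000573 in the paired fit, edgeR). In the authors' deposited table it is listed at 615800 FPKM in PDAT and 179214 FPKM in CL37. Mitochondrial RRN26 had 1286 ± 53.0 CPM in PDAT and 835 ± 122 CPM in CL37, and RRN18 had 716 ± 99.5 and 636 ± 87.0 CPM in these lines (SD, n = 3 each). The 18S locus AT3G41768 had 2573, 2381 and 2201 CPM in PDAT, against 2433, 1052 and 1537 CPM in CL37, so CL37 A reached the PDAT range, and the other 18S locus, AT2G01010, had 1.123 CPM in PDAT and 1.111 CPM in CL37. The 5 together took 1.01%, 0.879% and 0.855% of the gene counts in PDAT, against 0.654%, 0.436% and 0.426% in CL37. The order of the 6 libraries by this share was that by non-unique alignments except that CL37 B and C changed places.

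Markers of the parts of the seed were compared next, because a seed sample is a mixture of coat, endosperm and embryo. Of 13 seed coat markers tested, 12 had a positive fold change, with a median of 0.58. None was called in the fit of all libraries, 5 were called higher in the paired fit (38.5%, against 4.32% of all genes) and none lower, and 3 lay above CL37 in all libraries (23.1%, against 12%). In a whole-seed sample more cells of a type and more RNA per cell of that type cannot be told apart. Summed over the list, the level was 1162, 1271 and 905 CPM in PDAT, against 901, 1157 and 673 CPM in CL37, so the groups overlapped, with replicate C lowest and B highest in both lines. The median of the list was 0.24 without CL37 C, 0.39 without PDAT B and 0.18 with the non-unique share as a covariate.

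GL2, a homeodomain factor of the mucilage-secreting epidermis, had 131, 158 and 92.2 CPM in PDAT, against 64.6, 80.4 and 50.5 CPM in CL37. In each letter PDAT was higher, with a log2 fold change of 0.97 ± 0.31 (SE, adjusted p = 0.246, and 0.00118 in the paired fit, edgeR). MUM2, a beta-galactosidase that modifies mucilage, had 107, 153 and 84.6 CPM in PDAT, against 59.6, 108 and 58.8 CPM in CL37 (paired-fit adjusted p = 0.0121, edgeR). Genes for proanthocyanidin, the tannin pigment of the inner coat, were the others called there. BAN, the anthocyanidin reductase, had 71.2, 38.3 and 38.1 CPM in PDAT, against 29.7, 19.3 and 21.9 CPM in CL37. LDOX, acting just before it in the pathway, averaged 32.7 CPM in PDAT and 18.2 CPM in CL37, and their regulator TT8 62.2 and 36.9 CPM. The paired-fit adjusted p was 0.00153 for BAN, 0.00374 for LDOX and 0.00333 for TT8 (edgeR).

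Not all coat genes shared this. TT10, the laccase that oxidises tannins and the highest marker of the list, had 335, 273 and 294 CPM in PDAT, against 352, 444 and 278 CPM in CL37 (log2 fold change -0.25 ± 0.30 SE). GATL5, which acts on mucilage pectin, had 212, 357 and 226 CPM in PDAT, against 151, 325 and 160 CPM in CL37, and neither gene passed in either fit. The coat peroxidase AT3G50990 ranged from 33.9 to 108 CPM in PDAT and from 18.6 to 103 CPM in CL37. TT12, the tannin precursor transporter, was too low to test, with 14 counts over the PDAT and 5 over the CL37 libraries.

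Embryo and endosperm markers leaned the same way with few calls. Of 8 embryo markers tested, 6 were positive, with a median of 0.37 and summed levels of 248, 272 and 267 CPM in PDAT, against 219, 220 and 215 CPM in CL37. ATML1, a factor of the embryo epidermis, had 84.1, 104 and 85.6 CPM in PDAT, against 58.0, 68.6 and 72.7 CPM in CL37, and LEC2, a B3 factor that starts maturation, had 8.49, 9.06 and 9.88 CPM in PDAT, against 5.75, 6.36 and 5.99 CPM in CL37. These 2 were called higher in the paired fit (adjusted p = 0.0352 and 0.0363, edgeR), 25% of the 8 against 4.32% of all genes. With the non-unique share as a covariate the fold change of LEC2 was -0.17. LEC1, its partner in maturation, had 66.8 ± 3.85 CPM in PDAT and 61.6 ± 13.5 CPM in CL37, and FUS3 59.8 ± 8.25 and 49.2 ± 6.71 CPM (SD, n = 3 each), and neither passed in either fit. WOX2 and CUC2 were too low to test.

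All 6 tested endosperm markers had a positive fold change, with a median of 0.36, and none was called in either fit. FWA, FIS2 and PHE1 were low. FWA had 1.17 CPM in PDAT and 0.87 CPM in CL37, and FIS2 had 3.52 CPM and 2.985 CPM, with CL37 C lowest at 1.30 CPM. PHE1 had 1.81, 2.45 and 10.2 CPM in PDAT, against 2.98, 1.53 and 1.30 CPM in CL37, so PDAT C alone stood out. The extensin EPR1 had 1267, 1505 and 1555 CPM in PDAT, against 531, 1180 and 1794 CPM in CL37, where the spread among CL37 libraries exceeded the gap. RGE1, also called ZHOUPI, which drives endosperm breakdown, had 29.8 ± 4.30 CPM in PDAT and 21.0 ± 3.88 CPM in CL37, and its partner ICE1 303 ± 10.6 and 301 ± 30.7 CPM (SD, n = 3 each). The early endosperm genes IKU2, MINI3, AGL62 and MEA reached at most 7 counts in any of the 6 libraries and were not tested. Of the 4 silique wall markers tested, which report on carried-over fruit tissue but are in part also expressed in ovules and seed coats, 3 were positive. SHP2 had 84.1, 76.6 and 51.2 CPM in PDAT, against 61.6, 63.6 and 35.6 CPM in CL37 (paired-fit adjusted p = 0.0434, edgeR, and a log2 fold change of -0.07 with the non-unique share as a covariate), and SPT 23.1 ± 2.01 CPM in PDAT and 25.4 ± 2.70 CPM in CL37. FUL, IND and NST1 had at most 8 counts in any library. The list summed to 120, 106 and 83.4 CPM in PDAT, against 94.8, 96.5 and 69.1 CPM in CL37, with replicate C lowest in both lines as for the seed coat.

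The endogenous genes of acyl editing and oil assembly, the pathway into which the castor enzyme was placed, differed little. Of 19 tested, 6 were positive and 13 negative, with a median of -0.16. None was called in the fit of all libraries. PDAT1, the Arabidopsis counterpart of the added enzyme (listed as PDAT, AT5G13640), had 10.09, 9.11 and 10.2 CPM in PDAT seeds, against 9.38, 9.34 and 9.98 CPM in CL37 seeds (log2 fold change 0.04 ± 0.13 SE). PDAT2 (AT3G44830) had 6.73, 10.3 and 9.18 CPM in PDAT, against 5.67, 6.05 and 9.54 CPM in CL37, and the groups overlapped. DGAT1 (listed as TAG1), the main acyl-CoA-dependent enzyme, had 75.1 ± 8.65 CPM in PDAT and 77.3 ± 13.7 CPM in CL37 (SD, n = 3 each).

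ROD1 was the exception in this group. It encodes the enzyme that exchanges head groups between phosphatidylcholine and diacylglycerol, and so moves fatty acids modified on phosphatidylcholine towards oil. Its level was 134, 166 and 159 CPM in PDAT, against 210, 223 and 201 CPM in CL37. No PDAT library reached the CL37 range, with a log2 fold change of -0.47 ± 0.15 (SE, adjusted p = 0.263 in the fit of all libraries and 0.0286 in the paired fit, edgeR). GPAT9, which adds the first fatty acid to glycerol-3-phosphate, had 29.0, 35.2 and 38.0 CPM in PDAT, against 45.8, 40.8 and 45.3 CPM in CL37. Its unadjusted p was 0.00273, but its adjusted p was 0.236, and 0.0634 in the paired fit (edgeR).

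For the desaturases and the lysophospholipid acyltransferases the libraries overlapped or nearly did. FAD2, the oleate desaturase that competes with the hydroxylase for its substrate, had 1286, 2133 and 1784 CPM in PDAT, against 1781, 2418 and 2442 CPM in CL37. FAD3, which makes linolenic acid, had 319 ± 96.3 CPM in PDAT and 359 ± 54.9 CPM in CL37 (SD, n = 3 each). LPCAT1 (listed as LPLAT1) had 17.4 ± 2.35 and 16.7 ± 1.83 CPM, and LPCAT2 (LPLAT2) 52.2 ± 8.45 and 61.5 ± 2.79 CPM, in PDAT and CL37 in this order. Transcripts of FAE1 itself (listed as KCS18), the elongase whose gene is mutated in both lines, were at 264 ± 58.3 CPM in PDAT and 359 ± 85.6 CPM in CL37, and this level does not check the mutation.

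All 20 tested genes of plastid fatty acid synthesis had a negative fold change, with a median of -0.23, and none was called in the fit of all libraries. Fold changes fell with level over all tested genes, from a median of 0.13 in the lowest of 10 groups to -0.16 in the highest, which begins at 61.5 CPM, and highly expressed lists such as this one and the ribosomal and storage proteins are to be read beside that. In the paired fit 1 was called lower, ACP4, 5% of the 20 against 2.32% of all genes. This acyl carrier protein had 66.8, 63.4 and 63.3 CPM in PDAT, against 94.0, 84.5 and 80.4 CPM in CL37 (adjusted p = 0.0331, edgeR). The list summed to 5381, 6556 and 6451 CPM in PDAT, against 6244, 6686 and 8863 CPM in CL37, with PDAT A lowest, CL37 C highest and the others close together. Its highest members had the same order, PKP-BETA1, a plastid pyruvate kinase subunit, at 683 ± 76.2 CPM in PDAT and 867 ± 207 CPM in CL37, and CAC2, a subunit of acetyl-CoA carboxylase, at 600 ± 63.1 and 753 ± 124 CPM (SD, n = 3 each). BCCP2, another subunit, had 398 ± 60.5 CPM in PDAT and 465 ± 109 CPM in CL37, and WRI1, the factor that switches these genes on, 174 ± 14.2 and 214 ± 36.8 CPM, and neither passed in either fit.

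Storage protein and oleosin transcripts spread more within the lines than between them. All 13 tested were negative, with a median of -0.26, and the list summed to 41980, 98390 and 81380 CPM in PDAT, against 73930, 74980 and 106000 CPM in CL37. PDAT A was far below and CL37 C above the others. The cruciferin CRU3 had 5809, 17330 and 11800 CPM in PDAT, against 11700, 12110 and 18000 CPM in CL37, and the albumin SESA3 had 8909, 21170 and 17710 CPM in PDAT, against 14140, 14780 and 20540 CPM in CL37. Without PDAT A their log2 fold changes were 0.06 and 0.24, on the other side of zero. SESA5, a low albumin, was the 1 gene called lower in the paired fit (7.69% of the 13, against 2.32% of all genes). It had 354, 609 and 702 CPM in PDAT, against 886, 834 and 1104 CPM in CL37 (adjusted p = 0.0159, edgeR).

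**Figure D4:**
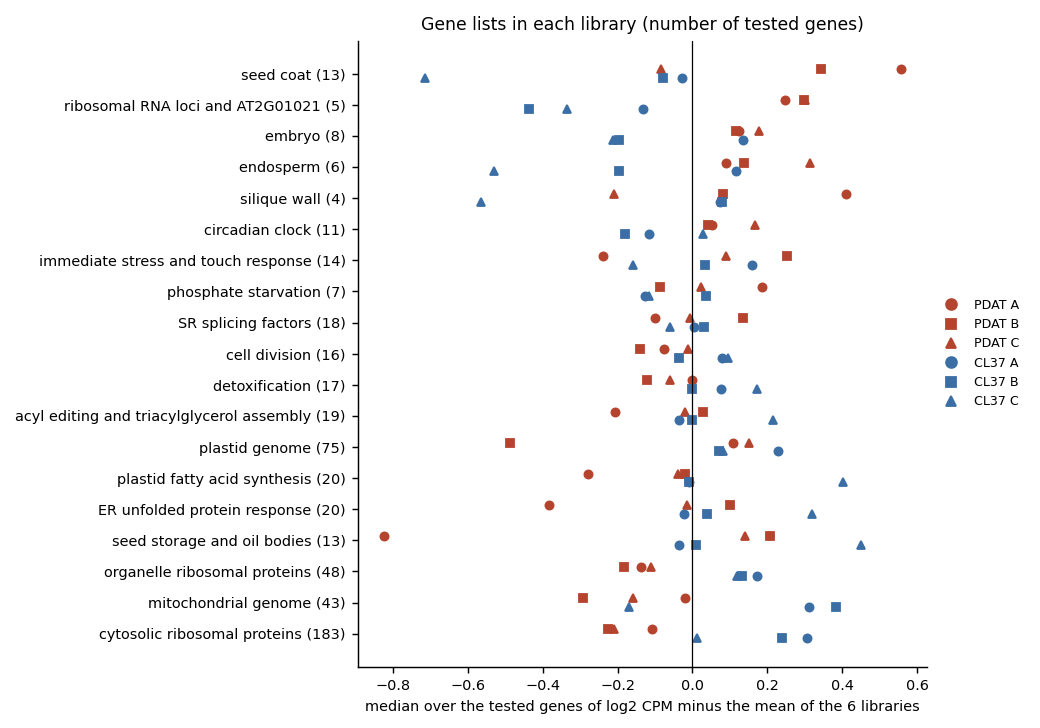
Median log2 CPM, relative to the mean of the 6 libraries, over the tested genes of each list in each library (red PDAT, blue CL37, symbols by replicate, gene numbers in brackets). Both ribosomal protein lists lie below zero in every PDAT and above it in every CL37 library, whereas the storage list runs from -0.82 in PDAT A to 0.45 in CL37 C.

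Chaperones and sensors of the unfolded protein response, which act where membrane and storage proteins are folded in the endoplasmic reticulum, were not called in either fit. Of 20 tested, 15 were negative, with a median of -0.23. PDIL1-1, a protein disulfide isomerase, had 312, 512 and 490 CPM in PDAT, against 501, 529 and 793 CPM in CL37. The chaperone SHD had 404 ± 49.8 CPM in PDAT and 492 ± 115 CPM in CL37, and BIP1 had 295 ± 64.4 and 365 ± 94.4 CPM (SD, n = 3 each). As in the storage list, PDAT A was lowest and CL37 C highest.

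Detoxification genes showed no common direction at this stage. Of 17 tested, 5 were positive, 11 negative and 1, GSTF7, was at 0 counts in all 6 libraries, with a median of -0.15. GSTU19, a glutathione S-transferase, had 130, 145 and 151 CPM in PDAT, against 184, 186 and 214 CPM in CL37 (paired-fit adjusted p = 0.0287, edgeR). GSTF6, another of the family, had 6.03, 2.24 and 2.71 CPM in PDAT, against 2.25, 1.15 and 0.955 CPM in CL37 (0.0159 in the same fit). AER, which reduces reactive aldehydes from lipids, had 41.6 ± 4.09 CPM in PDAT and 47.7 ± 5.72 CPM in CL37 (SD, n = 3 each).

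Stress, phosphate, clock and cell cycle genes gave few calls. None of 14 tested genes of the immediate stress and touch response was called in either fit, and ERF4 had 24.04 ± 6.64 CPM in PDAT and 22.0 ± 3.98 CPM in CL37, while TCH4 had 22.1 ± 1.83 and 23.6 ± 2.62 CPM (SD, n = 3 each). Of 7 phosphate starvation genes, 2 were called higher in the paired fit (28.6%, against 4.32% of all genes). They were PHO1, a phosphate exporter with 14.6, 15.4 and 12.6 CPM in PDAT, against 9.16, 9.65 and 6.51 CPM in CL37 (adjusted p = 0.0091, edgeR), and NPC4, a phospholipase C, with 4.37 CPM in PDAT and 2.31 CPM in CL37 (0.0478). SQD1, the sulfolipid enzyme, had 30.5 ± 2.02 CPM in PDAT and 34.4 ± 3.84 CPM in CL37.

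Of 11 circadian clock genes, TOC1 and PRR7, both repressors of the morning genes, were called higher in the paired fit (18.2%, against 4.32% of all genes). TOC1 had 36.9, 36.0 and 34.3 CPM in PDAT, against 28.3, 26.5 and 23.6 CPM in CL37, and PRR7 21.7 ± 1.90 CPM in PDAT and 14.1 ± 3.08 CPM in CL37 (adjusted p = 0.0261 and 0.0129, edgeR). The evening complex gene PCL1 had 24.2 ± 1.21 CPM in PDAT and 25.6 ± 4.21 CPM in CL37 (SD, n = 3 each). Harvest times are not in the labels. Of 16 cell division genes, 12 were negative, with a median of -0.12. All PDAT libraries lay below all CL37 libraries in 5 of the 16, CDKB2;1 included (31.2%, against 11.4% of all genes). PCNA1, the replication clamp, had 26.97 ± 0.775 CPM in PDAT and 37.2 ± 4.44 CPM in CL37, and PRL, an MCM helicase subunit, 25.1 ± 1.85 and 34.4 ± 1.53 CPM. Both were called lower in the paired fit (adjusted p = 0.0261 and 0.032, edgeR), 12.5% of the 16 against 2.32% of all genes. The cytokinesis syntaxin SYP111 had 295 ± 20.2 CPM in PDAT and 320 ± 19.0 CPM in CL37, and the kinase CDKB2;1 47.7 ± 0.72 and 55.3 ± 3.08 CPM, and neither passed in either fit.

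Genes of the organelle genomes had medians of -0.18 over 75 plastid and -0.35 over 43 mitochondrial loci tested. Single genes varied widely between libraries, with PSBA at 129, 96.4 and 146 CPM in PDAT, against 233, 38.4 and 113 CPM in CL37, and RBCL at 94.0 ± 40.5 CPM in PDAT and 83.3 ± 25.0 CPM in CL37 (SD, n = 3 each). No plastid locus was called in either fit. Of the 43 mitochondrial loci none was called in the fit of all libraries. In the paired fit 3 of them were called lower (6.98%, against 2.32% of all genes) and 1, RRN26, higher (2.33%, against 4.32%). All PDAT libraries lay below all CL37 libraries in 9 of the 43 (20.9%, against 11.4% of all genes).

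Whether the difference between the lines at 7 to 8 days was that of later stages was tested with interaction terms in the same fit. Against 9 to 10 days 1 gene was called (0.00529% of those tested), PARG2, a poly(ADP-ribose) glycohydrolase. Its log2 fold changes of PDAT over CL37 were 1.34 at 7 to 8 days, -2.76 at 9 to 10 days and -1.95 at 11 to 12 days, at a level of at most 1.14 CPM in the 6 libraries of the first stage. Against 11 to 12 days 133 genes were called (0.704%), 128 with a higher and 5 with a lower fold change at 7 to 8 days. As the choice of these genes fixes, the 128 had a higher fold change at the first stage than at the last, and their median was 0.31 at 7 to 8 days, -0.45 at 9 to 10 days and -1.53 at 11 to 12 days, and 1 of them was called at the first stage and 119 at the last. At 9 to 10 days itself 4 genes were called between the lines, all lower in PDAT, and at 11 to 12 days 500 were, 18 higher and 482 lower.

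The 4 of these 128 with the smallest p shared a pattern. The phi-class glutathione S-transferase GSTF8 had log2 fold changes of 0.11 ± 0.27, -0.96 and -3.25 at the 3 stages, and AT3G22910, a calcium-pumping type ATPase, 0.45 ± 0.38, -0.72 and -3.91 (SE given at the first stage). HSPRO2, a nematode resistance-like protein, had 0.46, -1.97 and -3.23, and the trehalose phosphate synthase family member TPS11 had 0.22, -0.31 and -2.28. At 7 to 8 days GSTF8 was at 36.9 ± 5.63 CPM in PDAT and 34.3 ± 4.40 CPM in CL37 (SD, n = 3 each), so the means differed by less than the spread within either line. Over the 17 detoxification genes the median fold change was -0.15, -1.71 and -2.91 at the 3 stages. These stages share no library, but each is compared within its own CL37 group.

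SYP21 was also among the 128, with another course. Its fold change was 0.82 at 7 to 8 days and then -0.07 and -0.14, and its interaction with the last stage was 0.97 (adjusted p = 0.0121, edgeR). In PDAT seeds its level was 24.9 ± 2.92, 15.6 ± 1.85 and 24.9 ± 4.29 CPM at the 3 stages, and in CL37 seeds it was 14.1 ± 2.17, 16.5 ± 0.254 and 27.5 ± 2.48 CPM (SD, n = 3 each). AT2G01100 followed a like course, with fold changes of 0.97, -0.08 and -0.18. Of the 5 genes that were lower at 7 to 8 days relative to the last stage, AT3G09190 had -0.60, 0.21 and 0.33 and TBL36 had -0.81, 0.23 and 0.20. The other 3 were AT3G63290, with -0.48, -0.15 and 0.58, the proline transporter PROT1, with -0.24, 0.08 and 0.40, and the purine synthesis enzyme AT2G35040, with -0.36, 0.22 and 0.47. AT5G35200 kept a positive sign at all stages, 1.09, 0.77 and 0.53, and its interactions were not called (adjusted p = 0.833 and 0.405, edgeR).

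**Figure D5:**
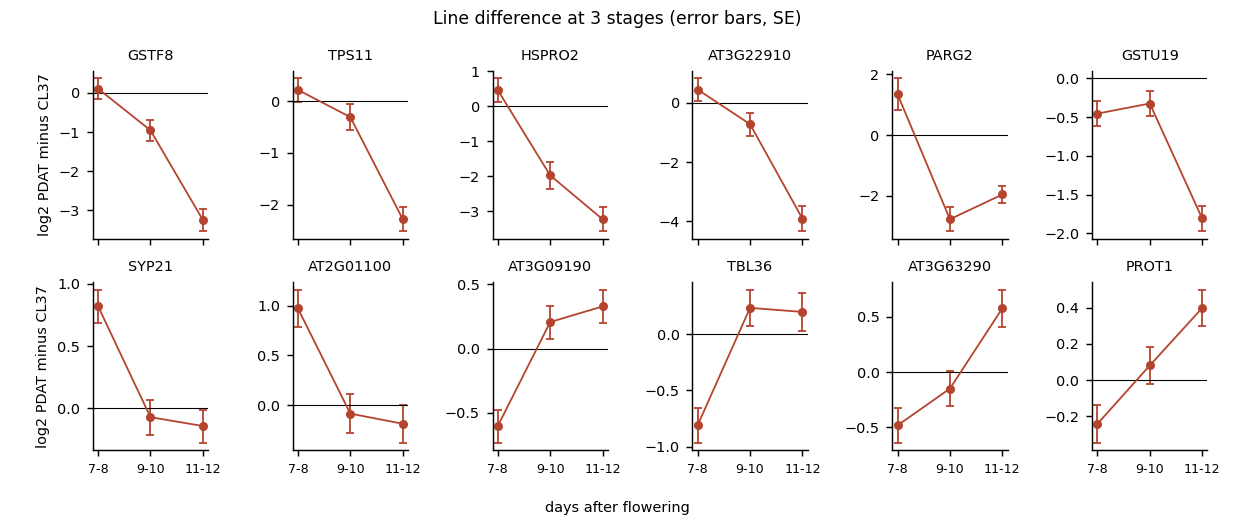
Log2 fold change of PDAT over CL37 at 7 to 8, 9 to 10 and 11 to 12 days for 12 genes with a called interaction (error bars, SE; vertical axes differ). In the upper row the difference lies below zero at 11 to 12 days, at -3.25 for GSTF8 and -3.91 for AT3G22910, and in the lower row SYP21 and AT2G01100 differ at 7 to 8 days and lie near zero afterwards.

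Among the lists, the medians that stood out at 7 to 8 days were not kept at the next stage. For cytosolic ribosomal proteins they were -0.37, -0.08 and 0.07 at the 3 stages, for organelle ribosomal proteins -0.31, 0.02 and 0.19, and for the seed coat 0.58, -0.11 and 0.69. Plastid fatty acid synthesis had -0.23, 0.03 and 0.14, and acyl editing and oil assembly -0.16, 0.05 and 0.01. The differences between these medians were not tested.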

How the data were processed

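Raw counts of reads per locus, 1 file per library, were deposited by the authors, with 33602 loci and 5 summary rows each. Per the submitters' processing notes, the genome was TAIR10 and the tools named are TopHat2 (2.0.3), HTSeq (0.5.4p3), Trimmomatic (0.22), Cufflinks (2.0.1) and bcl2fastq (1.8.2); their settings and strand use are not given in the sources used here. A table of FPKM, pooled by the authors to 1 value per line and stage, was used only where named. The summary rows, 11.4% to 20.5% of each of the 6 totals, stayed out of library sizes and tests.

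Counts were fitted with edgeR 4.0.16 (R 4.3.3; TMM, filterByExpr, robust quasi-likelihood) over all 27 libraries in 9 groups, without a block. The common biological coefficient of variation was 0.209. Log2 CPM used a prior count of 2. Shares and the developmental score were compared by exact permutation. Alternatives used RLE and upper-quartile factors, no filter, DESeq2 1.42.0, a replicate block, a covariate, fewer libraries and each replicate left out; those on gene length, ribosomal RNA loci, the 18 libraries and the variants of the paired fit were chosen after seeing the data. The scripts were tested on simulated data.

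Pairing comes from the data: deviations of same-letter libraries from their group means correlated across genes at 0.315 (A), 0.107 (B) and 0.226 (C) between PDAT and CL37 at this stage. PDAT B correlated slightly more with CL37 C (0.126), and at later stages not all letters did so.

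Named genes were the called ones, the 10 in each direction with the smallest p, up to 2 highest members per list, the 4 called genes each way per interaction and 11 fixed lipid genes; all others, the largest differences in the paired fit included, were chosen after their values were seen. Members and gene lists were chosen with earlier results of these data known. Positions are from the TAIR10.1 annotation, in which most gene ends differ from the authors' table although the chromosomes are the same. Replicates differed by more than sampling noise, with a chi-square per degree of freedom of 10.2 to 32.4.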

Additional observations from a re-analysis of the deposited data

Results flagged for a closer look

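The difference between PDAT and CL37 at 7 to 8 days was not the same as at later stages for a number of genes, by the interaction terms of the edgeR fit. Against 9 to 10 days 1 gene passed, PARG2, with an interaction of 4.11 log2 units. Against 11 to 12 days 133 genes passed. The named ones with a higher fold change at 7 to 8 days were GSTF6 (5.78), AT3G22910 (4.36), HSPRO2 (3.69), GSTF8 (3.35), PARG2 (3.29), TPS11 (2.49), GSTU19 (1.35), AT2G01100 (1.16) and SYP21 (0.97), all in log2 units. Those with a lower one were AT3G63290 (-1.06), TBL36 (-1.01), AT3G09190 (-0.93), AT2G35040 (-0.83) and PROT1 (-0.64). For GSTF6, GSTF8 and AT3G22910 the fold change of PDAT over CL37 was 1.32, 0.11 and 0.45 at 7 to 8 days and -4.46, -3.25 and -3.91 at 11 to 12 days. For SYP21 and AT2G01100 it was 0.82 and 0.97 at the first stage and -0.14 and -0.18 at the last.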

How the results depend on the processing

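The count of called genes, 2 (2 higher, 0 lower), changed with the settings, and the cause was not tested. It was 0 with no filter on low counts, 83 with DESeq2 (42 higher, 41 lower), 1 (0 higher, 1 lower) with the non-unique share as a covariate, and 37 (26 and 11) without the fae1 A libraries of the first 2 stages. The 6 libraries alone gave 2, 1 in each direction, which were FAB1B and ESM1 and not SYP21 or AT5G35200, and a replicate block within stage over all libraries gave AT1G14970 and SYP21. With the replicate block on them 1255 were called (817 and 438). Alternatives chosen after seeing the data gave 7 (4 and 3) with the length trend removed, 16 (14 and 2) from the 18 PDAT and CL37 libraries and 632 (401 and 231) from these with a replicate block within stage. The blocked fit without robust estimation gave 899 (626 and 273), and DESeq2 with the block 516 (260 and 256). Without letter A, B or C of both lines the blocked counts were 1058 (878 and 180), 759 (494 and 265) and 607 (354 and 253). Leaving out 1 replicate gave 0 to 3 (higher 0 to 2, lower 0 to 1).

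The interaction with 9 to 10 days (1 gene) gave 25 with DESeq2, 3 with the block within stage, 2 without the fae1 A libraries, 0 with the length trend removed and 0 to 7 with 1 replicate left out. That with 11 to 12 days (133) gave 268, 127, 381, 222 and 74 to 112 in these settings. The gap in developmental score was 0.37 with 200 genes each way.

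Some fold changes turned sign, those of LEC2 and SHP2, called in the blocked fit, included. With the non-unique covariate they were 0.113 for TAG1, 0.233 for FAD3, -0.175 for LEC2, -0.0706 for SHP2, 0.356 for CRU3 and 0.564 for SESA3. Over the fits with 1 replicate left out, GSTF8 ranged from -0.0185 (without PDAT B) to 0.204, LPLAT1 from -0.032 (without PDAT B) to 0.164 and EPR1 from -0.0455 (without CL37 A) to 0.753. FAD3 ranged from -0.387 to 0.0438, CRU3 from -0.663 to 0.0632 and SESA3 from -0.31 to 0.237, each highest without PDAT A, and TAG1 from -0.157 to 0.0991. SESA3 was also 0.138 without CL37 C. With the length trend removed PDAT1 (listed as PDAT) had -0.163 and SESA3 0.0988, and with the block within stage SESA3 had 0.052. In the blocked fit without letter A, TAG1 had 0.0447, PDAT -0.0138 and SESA3 0.14. Without B, LPLAT1 had -0.0755 and TT10 0.0111, and without C, TAG1 had 0.0709 and LPLAT1 -0.0115. The blocked fit changed no call beyond those given with the genes and counts. With 3 libraries a line and a median SE of 0.23, small differences were not detectable.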
